A study of Homo sapiens with 30 samples.

Results

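The 10 genes described here encode NF-kappaB subunits (NFKB1, NFKB2 and RELB), inhibitors that act back on the pathway (NFKBIA, NFKBIE, TNFAIP3 and TNIP1) and signalling adaptors of the same circuit (BIRC3, TRAF1 and IRAK2). They were taken by symbol from a table of 63138 genes, each matched 1 line, and all 10 had enough counts to be tested in every comparison. RNA sequencing had been done on hCMEC/D3 cells, which are endothelial cells of human brain microvessels that were immortalised and serve in culture studies of the blood-brain barrier. There were 30 libraries in 10 groups of 3. The 5 direct groups were kept for 12 h in serum-free medium. Control had nothing added, TNF had tumour necrosis factor alpha (25 ng/mL), and IL1b had interleukin 1 beta (10 ng/mL). C5a, a fragment of complement, was used at a concentration of 50 ng/mL, and Epinephrine cells were given 200 nM of that hormone. The 5 vesicle groups carry the prefix EV- and were cells of the same line exposed to extracellular vesicles. These had been enriched from what cells under each of the 5 conditions released into the supernatant, and the labels give 12 h for these libraries too. The labels do not give the amount of vesicles added. A difference between vesicle groups in amount and one in content can therefore not be told apart. All libraries came from 1 cell line and carry 1 batch number, and the labels do not say whether the 3 libraries of a group came from separate cultures, so p-values measure the spread between libraries, which may be technical.

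NF-kappaB is a family of transcription factors that are held in the cytoplasm by inhibitor proteins of the IkappaB group. Receptors for TNF and interleukin 1 activate a kinase complex that marks IkappaB for destruction, the freed dimers enter the nucleus, and among the genes they switch on are their own inhibitors and subunits, which closes a feedback loop. In endothelial cells the pathway is known for switching on adhesion molecules and chemokines.

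Library totals lay between 16643961 and 22112326 counts, and the lowest count of any of the 10 genes in any library was 119 (TRAF1, EV-TNF replicate 3). Levels are given in CPM, the count relative to the scaled library total, with mean ± SD over 3 libraries. Of 12 endothelial markers, 11 reached at least 1 CPM in every library. EMCN was the exception. The summed level of the endothelial markers averaged 1186 CPM in Control, 1149 in TNF, 829 in IL1b, 862 in C5a and 932 in Epinephrine. In the vesicle groups it was 740 CPM in EV-Control, 837 in EV-TNF, 847 in EV-IL1b, 730 in EV-C5a and 832 in EV-Epinephrine. Leukocyte markers summed to at most 2.83 CPM in any library and epithelial markers to at most 0.456 CPM, while the mural markers summed to 320 to 510 CPM. Astrocyte markers summed to at most 5.78 CPM and neuron markers to at most 3.92 CPM. The fibroblast sum was nearly all COL1A1 (56.5 to 123 CPM), since LUM reached at most 2.66, PDGFRA 0.467 and DCN 0.426 CPM. Summed fibroblast markers averaged 72 CPM in Control, 78.7 in TNF, 73.2 in IL1b, 79.4 in C5a and 59 in Epinephrine. In the vesicle groups they averaged 88.4 CPM in EV-Control, 107 in EV-TNF, 110 in EV-IL1b, 90.1 in EV-C5a and 123 in EV-Epinephrine. The mural sum was mostly CSPG4 (251 to 442 CPM) and PDGFRB (34.4 to 88.8 CPM). RGS5 reached at most 11.4, ACTA2 3.58, DES 0.276 and KCNJ8 0.153 CPM. Summed mural markers averaged 403 CPM in Control, 473 in TNF, 343 in IL1b, 360 in C5a and 338 in Epinephrine. With vesicles the mural sum was 428 CPM in EV-Control, 450 in EV-TNF, 460 in EV-IL1b, 414 in EV-C5a and 503 in EV-Epinephrine. The part of these differences in the results was not tested. In bulk RNA, a change in the number of expressing cells and a change in RNA per cell cannot be told apart.

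The EV-Control libraries differed among themselves for these genes. EV-Control replicate 1 was the highest of its group for all 10 genes, with IRAK2 at 65 CPM against 25.2 and 17.9 CPM in the other EV-Control libraries, BIRC3 at 108 against 61.3 and 43.6 CPM and RELB at 24.4 against 14.7 and 14.8 CPM. NFKBIA (704, 645 and 527 CPM) and TNFAIP3 (438, 320 and 217 CPM) fell in steps from replicate 1 to 3. Comparisons with EV-Control are therefore also given without EV-Control replicate 1. Among the direct libraries, Epinephrine replicate 3 was the highest of its group for TNFAIP3 (356 CPM against 219 and 226) and BIRC3 (56.6 CPM against 41.3 and 40.6). Over all genes, however, Epinephrine replicate 2 was the library that differed most from the others of that group.

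The genes lie apart from one another in the genome, and positions are those of GENCODE 29 on GRCh38. Of the subunits, NFKB1 (ENSG00000109320) on chromosome 4 from 102501329 to 102617302, NFKB2 (ENSG00000077150) on chromosome 10 from 102394110 to 102402529 and RELB (ENSG00000104856) on chromosome 19 from 45001430 to 45038198 are all on the plus strand. Of the inhibitors, NFKBIA (ENSG00000100906) on chromosome 14 from 35401511 to 35404749, NFKBIE (ENSG00000146232) on chromosome 6 from 44258166 to 44265788 and TNIP1 (ENSG00000145901) on chromosome 5 from 151029945 to 151093577 are on the minus strand, and TNFAIP3 (ENSG00000118503) on chromosome 6 from 137867188 to 137883312 is on the plus strand. Of the adaptors, BIRC3 (ENSG00000023445) on chromosome 11 from 102317450 to 102339403 and IRAK2 (ENSG00000134070) on chromosome 3 from 10164865 to 10243743 are on the plus strand and TRAF1 (ENSG00000056558) on chromosome 9 from 120902393 to 120929173 is on the minus strand.

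Promoter sequence was looked up for the 10 genes because NF-kappaB acts through a short DNA element, the kappaB site. RefSeq promoter windows on GRCh38.p14, from 250 bases before to 50 bases after each annotated start, held 8 of the genes in 14 windows, and NFKBIE and RELB were not among them. The kappaB consensus, a motif of 10 bases searched on both strands with overlapping matches kept, occurred in 7 of these 14 windows (50%) and in 2075 of the 35116 windows of the table (5.91%). Counted by gene, it occurred in 6 of 8 members (75%) and in 1937 of 27305 genes (7.09%). NFKBIA, BIRC3, NFKB1, NFKB2, TNFAIP3 and TNIP1 held a match. TRAF1 and IRAK2 held none in these windows. A match is a run of letters and does not show that a factor binds there. Distances are counted from the start of the RefSeq transcript to which a window belongs, which can differ from the gene start given above, and the printed stretches of NFKB1, NFKB2, TNFAIP3 and TNIP1 overlap exons annotated in GENCODE 29. The parts of the upstream windows of NFKBIA and BIRC3 that lie before any exon are shown, since these genes respond very differently to the stimuli below, with matches in capitals and the gene's own strand read 5′ to 3′. The NFKBIA stretch is chr14:35404750-35404999, minus strand, the 250 bases before the start, with its match 81 bases upstream.
NFKBIA: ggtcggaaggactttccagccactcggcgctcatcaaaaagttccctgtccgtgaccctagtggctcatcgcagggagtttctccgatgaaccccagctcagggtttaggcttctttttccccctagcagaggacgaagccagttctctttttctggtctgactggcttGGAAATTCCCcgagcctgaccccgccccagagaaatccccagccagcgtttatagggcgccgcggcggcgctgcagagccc
The BIRC3 stretch is chr11:102317234-102317449, plus strand, 216 bases that run from 250 to 35 bases before the RefSeq start, with matches 199 and 135 bases before that start.
BIRC3: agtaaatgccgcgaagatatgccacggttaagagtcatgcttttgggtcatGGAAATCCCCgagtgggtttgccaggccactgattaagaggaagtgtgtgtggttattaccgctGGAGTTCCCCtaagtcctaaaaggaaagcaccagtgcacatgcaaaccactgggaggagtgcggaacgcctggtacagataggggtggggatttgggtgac

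For the other members the bases around a match are shown, to let the elements be compared letter by letter. They lie at chr4:102501300-102501329 (plus strand) for NFKB1, chr10:102394462-102394491 (plus strand) for NFKB2, chr6:137867188-137867217 (plus strand) for TNFAIP3 and chr5:151081057-151081086 (minus strand) for TNIP1.
NFKB1: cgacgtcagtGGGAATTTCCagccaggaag
NFKB2: aaacgtcatGGGAATTCCCCcctccggggg
TNFAIP3: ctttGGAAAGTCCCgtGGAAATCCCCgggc
TNIP1: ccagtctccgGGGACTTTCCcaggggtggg
TNFAIP3 carried its matches 67 and 55 bases before the start, and those of NFKB2 in this stretch overlapped, 107 and 106 bases before the start. The NFKB1 match lay 49 bases and the TNIP1 match 42 bases before the start.

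NFKB1 encodes p105, the precursor of the p50 subunit. It measured 65.3, 71 and 71.8 CPM in the Control libraries, 214, 236 and 245 CPM in TNF and 124, 125 and 115 CPM in IL1b. The 3 groups did not overlap. In the 8 groups that received neither cytokine directly, NFKB1 stayed between 63.1 and 89.6 CPM, and neighbouring groups in the order of means overlapped throughout. The mean over EV-TNF libraries, 64.7 ± 0.508 CPM, was the lowest of all groups.

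NFKB2 encodes p100, the precursor of p52, and RELB is the partner of p52 in the non-canonical branch. NFKB2 measured 80.2, 79.5 and 80.2 CPM in Control, 424, 442 and 441 CPM in TNF and 139, 133 and 143 CPM in IL1b. It lay lower in C5a (58.2, 61 and 60.8 CPM) and higher in Epinephrine (85.7, 91.8 and 94.1 CPM), with no overlap between either group and Control. Among vesicle groups it split into a high pair, EV-Control (160, 108 and 93.4 CPM) and EV-C5a (99.5, 94 and 111 CPM), and a low trio that ran from 66.4 to 73.4 CPM. RELB was the least abundant subunit in untreated cells per length, at 5.33 ± 1.28 CPM per kb of exon against 11.1 ± 0.567 for NFKB1 and 17.8 ± 0.0897 for NFKB2. Its levels were 18.4, 18.5 and 11.7 CPM in Control, 116, 112 and 112 CPM in TNF and 32.4, 31.9 and 35.3 CPM in IL1b. The third Control library sat with the C5a (11.3 to 12 CPM) and Epinephrine (11.9 to 13.9 CPM) libraries.

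NFKBIA encodes IkappaB alpha, the main fast-acting inhibitor. It measured 302, 285 and 336 CPM in Control and 720, 887 and 781 CPM in TNF. IL1b cells had 283, 271 and 266 CPM, below every Control library. C5a cells had 79.8, 82.5 and 79.9 CPM, the lowest of the 10 groups, and Epinephrine cells 466, 579 and 647 CPM. Among the vesicle groups, EV-Control had 704, 645 and 527 CPM and EV-C5a 633, 692 and 706 CPM. In EV-TNF the values were 278, 333 and 300 CPM, in EV-IL1b 269, 270 and 304 CPM, and in EV-Epinephrine 159, 161 and 153 CPM. Control, EV-TNF and EV-IL1b overlapped one another in this gene.

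TNFAIP3 encodes A20, an enzyme that edits ubiquitin chains and shuts off signalling from the TNF receptor. It measured 67.5, 54.2 and 73.4 CPM in Control, 1242, 1637 and 1394 CPM in TNF and 196, 177 and 178 CPM in IL1b. C5a cells had 19.8, 19.5 and 20.2 CPM and Epinephrine cells 219, 226 and 356 CPM, so every Epinephrine library lay above every IL1b library. EV-Control had 438, 320 and 217 CPM and EV-C5a 304, 341 and 407 CPM. Below them came EV-TNF (94.5, 125 and 116 CPM), EV-IL1b (102, 109 and 125 CPM) and, lowest, EV-Epinephrine (39.1, 41.3 and 36.6 CPM). The highest group mean of TNFAIP3 was 71.8 times the lowest, the widest range among the 10 genes, and among the 8 groups without a direct cytokine it was still 17.7 times the lowest. Its exons share 95 bases (1.9%) with an antisense gene, AL357060.1, which had 1 to 121 counts per library.

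NFKBIE encodes IkappaB epsilon, and TNIP1 encodes ABIN1, a ubiquitin-binding partner of A20. NFKBIE measured 22.3, 22 and 21.2 CPM in Control and 99.9, 105 and 107 CPM in TNF, and the remaining direct groups lay between 15 and 32.7 CPM. EV-Control again held the widest spread, 43.7, 30.1 and 24.4 CPM. TNIP1 measured 164, 152 and 150 CPM in Control, 1379, 1419 and 1471 CPM in TNF and 545, 540 and 536 CPM in IL1b. Outside these cytokine groups TNIP1 kept between 132 and 171 CPM, and its highest mean was 1.14 times its lowest, the narrowest range of the 10 genes there.

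BIRC3 (cIAP2, a ubiquitin ligase of the TNF receptor complex) and TRAF1 (an adaptor that binds it) were scarce in untreated cells. BIRC3 measured 29.6, 26.6 and 28.9 CPM in Control, 648, 718 and 672 CPM in TNF and 119, 119 and 112 CPM in IL1b. It also differed among the other groups, from 22.8 CPM in a C5a library to 108 CPM in EV-Control replicate 1. TRAF1 measured 9.05, 9.35 and 8.38 CPM in Control, 374, 384 and 386 CPM in TNF and 43.6, 41.5 and 45.1 CPM in IL1b. Elsewhere TRAF1 stayed between 6.75 and 16.1 CPM with overlap of all neighbouring groups. IRAK2, a kinase-like adaptor downstream of the interleukin 1 receptor, measured 17.3, 15.4 and 17.8 CPM in Control, 158, 152 and 157 CPM in TNF and 61.5, 57.2 and 57.2 CPM in IL1b. EV-Control replicate 1, at 65 CPM, exceeded all 3 IL1b libraries for this gene.

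**Figure D1:**
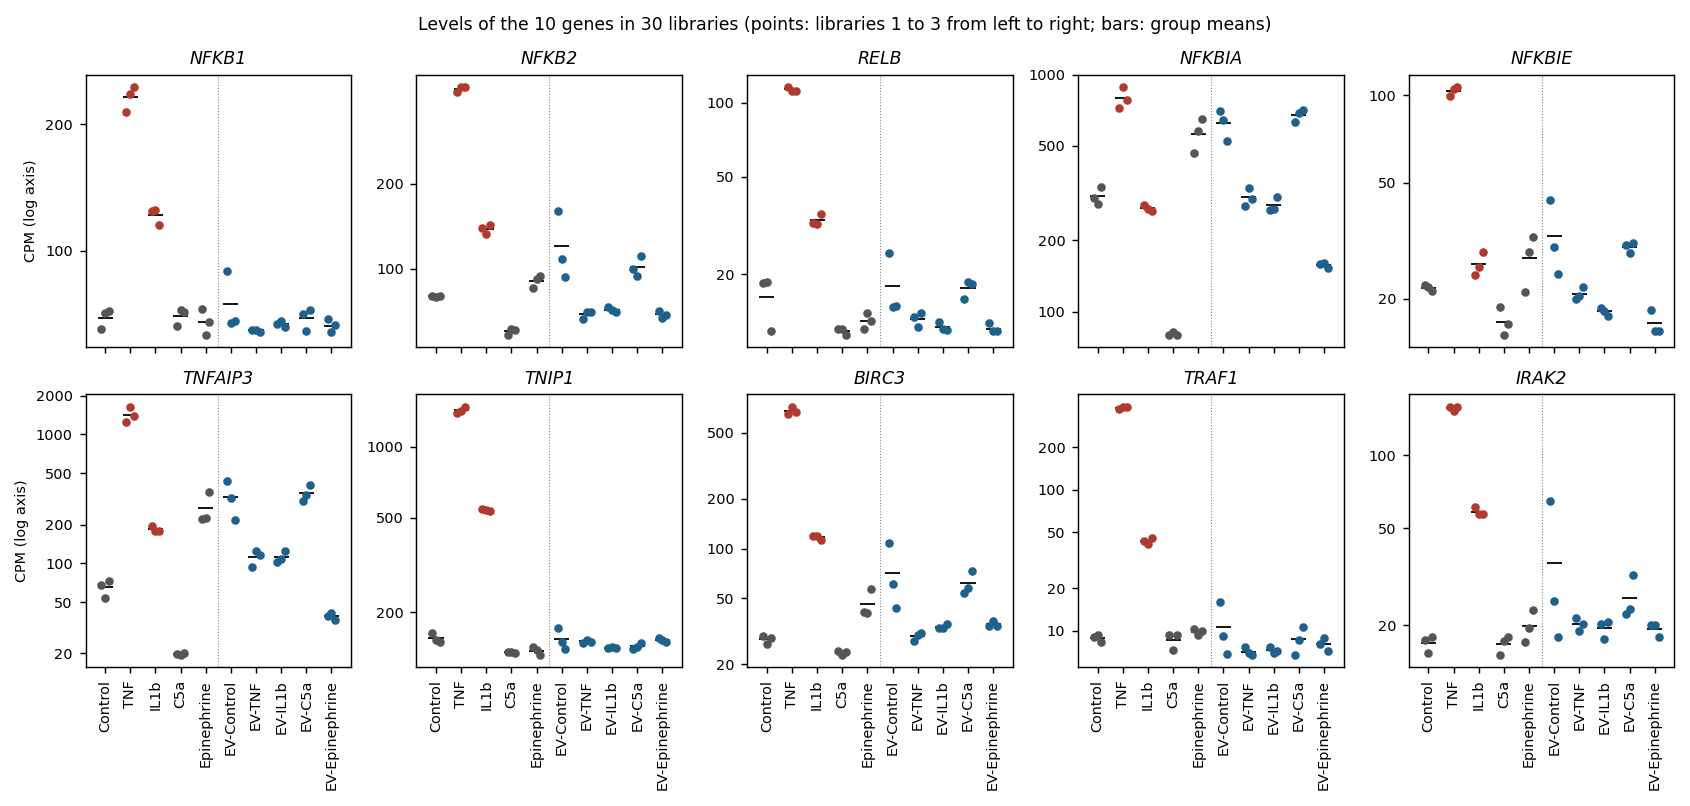
Level of each gene in CPM (log axis) in the 30 libraries, with 1 panel per gene, points for libraries 1 to 3 of a group from left to right and bars for group means. TNF and IL1b (red) stand above the rest for NFKB1, RELB, TNIP1, BIRC3 and TRAF1, whereas NFKBIA and TNFAIP3 also differ widely among the other direct groups (grey) and the vesicle groups (blue).

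The comparison of TNF with Control asked how direct exposure to the cytokine changed these genes. All 10 rose, and 27.5% of the 15908 genes tested rose. TRAF1 changed most, 42.6-fold (log2 fold change 5.41, SE 0.0709, adjusted p = 5.58e-36), followed by BIRC3 at 23.9-fold and TNFAIP3 at 21.9-fold. IRAK2 rose 9.22-fold, TNIP1 9.16-fold and RELB 6.98-fold. The smaller changes were those of NFKB2 (5.45-fold), NFKBIE (4.75-fold), NFKB1 (3.34-fold) and NFKBIA (2.59-fold, adjusted p = 7.49e-07). The median log2 fold change was 3.00 over the 10 genes and -0.012 over all genes tested. Scaling by total counts alone moved the latter to -0.288 and the share of calls that were higher from 52.1% to 22.7%, and all 10 genes were still called higher.

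IL1b gave a smaller and less uniform change. It raised 8 of the 10 genes, and 24.0% of all genes tested rose. TRAF1 rose 4.89-fold, BIRC3 4.14-fold, IRAK2 and TNIP1 3.5-fold each and TNFAIP3 2.84-fold (log2 fold change 1.51, SE 0.196, adjusted p = 7.21e-05). The subunits RELB, NFKB1 and NFKB2 rose 2.06-, 1.76- and 1.74-fold. The 2 IkappaB genes did not pass the test. NFKBIE had a log2 fold change of 0.27 (SE 0.117, adjusted p = 0.0597) and NFKBIA one of -0.16 (SE 0.112, adjusted p = 0.271). NFKBIE passed without IL1b replicate 1 (0.33, adjusted p = 0.0436) and with DESeq2 (adjusted p = 0.0342). In a fit of the IL1b and Control libraries alone, NFKBIE was called higher and NFKBIA was called lower (-0.17, adjusted p = 0.00201).

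A direct test of IL1b against TNF found all 10 genes lower in IL1b, against 21.4% of genes tested, while 19.9% were higher. The gap was widest for TRAF1 (8.72-fold), TNFAIP3 (7.71-fold) and BIRC3 (5.78-fold) and narrowest for NFKB1 (1.89-fold). TNIP1 and IRAK2 differed by 2.62- and 2.63-fold, less than the 3.93-fold gap of NFKBIE. The doses of the cytokines differed, 25 ng/mL for TNF and 10 ng/mL for IL1b, so the values compare these exposures and not the cytokines at a matched dose.

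C5a lowered 6 of the 10 genes and raised none, and 10.8% of all genes tested fell. NFKBIA was 3.78-fold lower (log2 fold change -1.92, SE 0.12, adjusted p = 4.63e-07) and TNFAIP3 3.25-fold lower (-1.70, SE 0.227, adjusted p = 0.000286). The others fell less, RELB by 0.46, NFKB2 by 0.40, NFKBIE by 0.38 and TNIP1 by 0.19 on the log2 scale. NFKB1, TRAF1 and IRAK2 overlapped with Control, and their log2 fold changes lay between -0.03 and 0.02. BIRC3 was at -0.26 (SE 0.111, adjusted p = 0.115) and was called lower by DESeq2 (adjusted p = 0.0244). The call of NFKBIE (adjusted p = 0.03) was lost without any single Control library (adjusted p 0.0649 to 0.103) and without C5a replicate 2 (0.13) or 3 (0.0995).

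In Epinephrine cells the genes moved in opposite directions. Of the 10 genes, 6 rose and 2 fell, while 13.5% of all genes tested rose and 11.8% fell. TNFAIP3 rose 4.14-fold (log2 fold change 2.05, SE 0.196, adjusted p = 1.98e-05), NFKBIA 1.85-fold (adjusted p = 0.000133) and BIRC3 1.65-fold (adjusted p = 8.93e-05). NFKBIE, IRAK2 and NFKB2 rose by 0.35, 0.25 and 0.19 on the log2 scale, and RELB and TNIP1 fell by 0.32 and 0.17. NFKB1 and TRAF1 did not pass the test. Several of the small changes rested on few libraries. Without Epinephrine replicate 3 the calls of NFKBIE (0.20, adjusted p = 0.181), IRAK2 (0.13, adjusted p = 0.363), TNIP1 (adjusted p = 0.0514) and RELB (adjusted p = 0.0946) were lost and 4 genes were called. Without Control replicate 1 again 4 were called, without Control replicate 2, 5. RELB was at -0.51 without Control replicate 3, the library with the low RELB level.

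Epinephrine and C5a were set against each other as the 2 stimuli that do not act through cytokine receptors. TNFAIP3 was 13.5-fold higher in Epinephrine than in C5a cells (log2 difference 3.75, SE 0.221, adjusted p = 4.19e-07) and NFKBIA 6.99-fold higher (2.80, SE 0.122, adjusted p = 1.59e-08). BIRC3 was 1.97-fold, NFKBIE 1.65-fold and NFKB2 1.51-fold higher. IRAK2, at 1.19-fold, passed narrowly (adjusted p = 0.0442) and did not pass without C5a replicate 1 (0.255), C5a replicate 2 (0.0688) or Epinephrine replicate 3 (0.425). This made 6 of 10 genes higher, against 8.98% of all genes tested, and none lower.

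**Figure D2:**
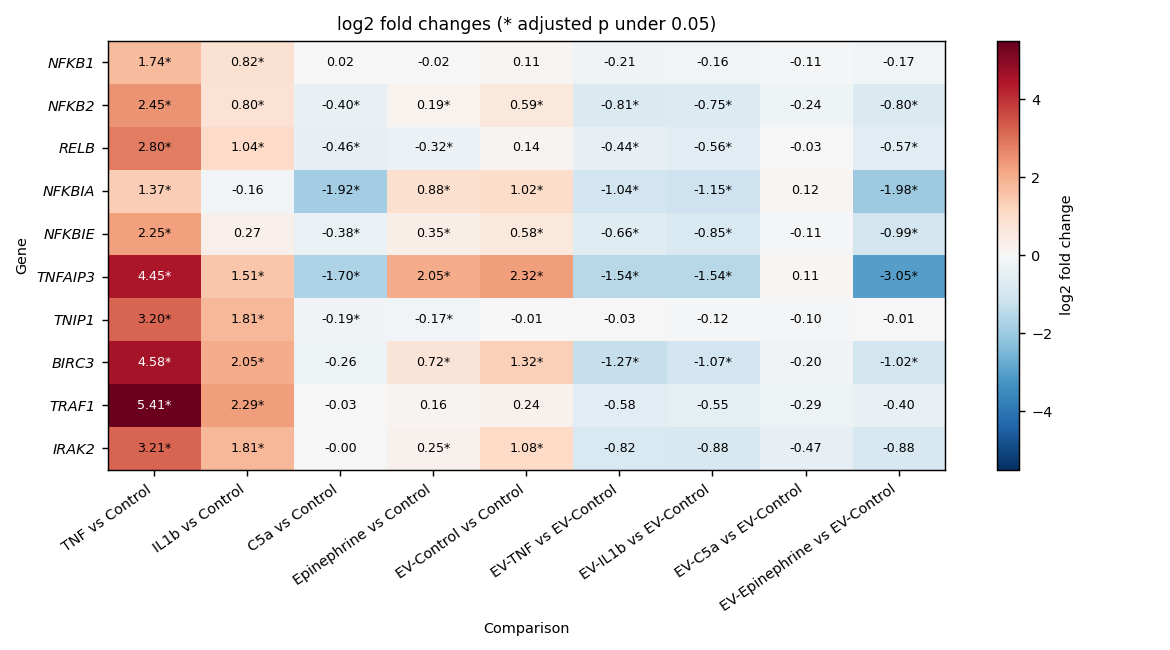
Heat map of the log2 fold change of each gene (rows) in the comparisons with a control and in EV-Control against Control (columns), printed in each cell and coloured from blue (lower) to red (higher), with an asterisk where the adjusted p was under 0.05. The TNF column runs from 1.37 to 5.41 with all 10 genes marked, and the bluest cells are TNFAIP3 (-3.05) and NFKBIA (-1.98) in EV-Epinephrine and NFKBIA (-1.92) and TNFAIP3 (-1.70) in C5a.

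The vesicle control was compared with the direct control in a fit of all 30 libraries, to show what vesicles of unstimulated cells did to these genes. TNFAIP3 was 4.99-fold higher in EV-Control (log2 difference 2.32, SE 0.22, adjusted p = 6.34e-08), BIRC3 2.49-fold, IRAK2 2.12-fold and NFKBIA 2.03-fold. NFKB2 was 1.5-fold and NFKBIE 1.49-fold higher. Thus 6 of 10 genes were higher, against 12.1% of the 16691 genes tested, and none was lower. Without EV-Control replicate 1, 5 genes were called, and the values were 2.05 for TNFAIP3 (adjusted p = 2.64e-07), 0.94 for NFKBIA, 0.89 for BIRC3, 0.34 for NFKB2 and 0.33 for NFKBIE (adjusted p = 0.0437). IRAK2 dropped to 0.36 (adjusted p = 0.11). Without EV-Control replicate 3, TRAF1 was called too (0.49, adjusted p = 0.0326). In a fit of only these 6 libraries, TNFAIP3 and NFKBIA alone were called. The direct and the vesicle groups are separate sets of libraries, so handling and vesicles cannot be told apart here.

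Vesicles of TNF-treated cells did not raise any of the 10 genes over EV-Control, and 6 were lower, against 7.42% of the 15918 genes tested. TNFAIP3 was 2.9-fold lower (log2 fold change -1.54, SE 0.228, adjusted p = 0.00106), BIRC3 2.41-fold, NFKBIA 2.06-fold (adjusted p = 5.7e-05), NFKB2 1.75-fold, NFKBIE 1.58-fold and RELB 1.36-fold. Values for the others were -0.82 for IRAK2 (adjusted p = 0.23), -0.58 for TRAF1 (0.207), -0.21 for NFKB1 (0.0889) and -0.03 for TNIP1 (0.706). EV-TNF was not tested against the direct Control. Means in EV-TNF and Control were 304 and 308 CPM for NFKBIA, 29.4 and 28.4 for BIRC3 and 20.7 and 21.8 for NFKBIE. They were 112 and 65 CPM for TNFAIP3, 68.9 and 80 for NFKB2 and 13.2 and 16.2 for RELB. Without EV-Control replicate 1, 5 genes were called. NFKBIA kept -0.95 and TNFAIP3 -1.26, NFKB2 was at -0.55, NFKBIE at -0.40 and BIRC3 at -0.84, and RELB lost its call (-0.17, adjusted p = 0.445). Without EV-Control replicate 3, 9 genes were called lower, IRAK2 among them (-1.14, adjusted p = 0.0493). Over all genes, the fit first described called 2120 in either direction, and the alternatives tried for this comparison called 1441 to 2220. Without EV-TNF replicate 1 the calls of BIRC3 (adjusted p = 0.0501), NFKBIE (0.0776) and RELB (0.0918) were lost, which left 3. Without EV-TNF replicate 2 or 3, NFKBIE (0.0698 and 0.0519) and RELB (0.134 and 0.0645) were lost, and NFKB1 was called without EV-Control replicate 2 (-0.28, adjusted p = 0.0083). In a fit of the EV-TNF and EV-Control libraries alone, NFKBIA was the 1 gene called. TNFAIP3 (-1.53, adjusted p = 0.0658) and BIRC3 (-1.26, adjusted p = 0.168) were among the calls lost there.

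With vesicles of IL1b-treated cells, 6 of the 10 genes were lower, against 8.14% of genes tested, and none was higher. The values were TNFAIP3 at -1.54 (SE 0.229, adjusted p = 0.00104), NFKBIA at -1.15 (SE 0.105, adjusted p = 2.37e-05), BIRC3 at -1.07, NFKBIE at -0.85, NFKB2 at -0.75 and RELB at -0.56. The EV-TNF and EV-IL1b comparisons share the EV-Control libraries. Without EV-Control replicate 1, TNFAIP3 was at -1.26, NFKBIA at -1.06, BIRC3 at -0.64 (adjusted p = 0.0236), NFKBIE at -0.59 and NFKB2 at -0.49, and RELB was not called (-0.28, adjusted p = 0.113). Without EV-Control replicate 3 all 10 genes were called lower, TRAF1 at -0.79, IRAK2 at -1.20, NFKB1 at -0.22 and TNIP1 at -0.18. The fit first described called 2329 genes in either direction, and the alternatives tried for this comparison called 1643 to 2334. Without EV-Control replicate 2, NFKB1 was called (-0.24, adjusted p = 0.0305). BIRC3 was not called without EV-IL1b replicate 1 (adjusted p = 0.0807), 2 (0.0772) or 3 (0.067). In a fit of the EV-IL1b and EV-Control libraries alone, NFKBIA was again the 1 gene called. TNFAIP3 (-1.53, adjusted p = 0.0574) and BIRC3 (-1.07, adjusted p = 0.213) were among the calls lost there.

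In EV-C5a cells none of the 10 genes passed edgeR's quasi-likelihood test, nor DESeq2, and 1 (TNIP1) had an unadjusted p under 0.05. Across the genome 8 genes were called (0.0503% of those tested in either direction), and 1202 had an unadjusted p under 0.05. Log2 fold changes ran from -0.47 for IRAK2 (SE 0.384) to 0.12 for NFKBIA (SE 0.102). The EV-C5a libraries overlapped the EV-Control libraries for all 10 genes. Without EV-Control replicate 1, TNFAIP3 was at 0.39 (adjusted p = 0.732) and RELB at 0.25 (adjusted p = 0.614), and no gene was called.

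Vesicles of Epinephrine-treated cells went with the lowest TNFAIP3 and NFKBIA levels of any vesicle group. TNFAIP3 was 8.31-fold lower than in EV-Control (log2 fold change -3.05, SE 0.254, adjusted p = 8.45e-06) and NFKBIA 3.96-fold lower (-1.98, SE 0.109, adjusted p = 2.45e-07). BIRC3 was 2.03-fold, NFKBIE 1.98-fold, NFKB2 1.75-fold and RELB 1.49-fold lower, which made 6 of 10 lower, against 10.5% of genes tested. TNIP1 was level with EV-Control (-0.01, SE 0.0446). Without EV-Control replicate 1, TNFAIP3 was at -2.78 (adjusted p = 9.01e-06), NFKBIA at -1.89 (adjusted p = 8.1e-07), NFKBIE at -0.73, BIRC3 at -0.59 (adjusted p = 0.0255) and NFKB2 at -0.55, and RELB was not called (-0.29, adjusted p = 0.0741). Without EV-Control replicate 3, 9 genes were called, with TRAF1 at -0.64, IRAK2 at -1.21 and NFKB1 at -0.23. Over all genes, the fit first described called 3131 in either direction, and the alternatives tried for this comparison called 2427 to 3280. NFKB1 was also called without EV-Control replicate 2 (-0.24). BIRC3 was not called without EV-Epinephrine replicate 1 (adjusted p = 0.0756), 2 (0.0612) or 3 (0.0722). In a fit of the EV-Epinephrine and EV-Control libraries alone, only TNFAIP3 and NFKBIA were called. BIRC3 (adjusted p = 0.182) and NFKBIE (adjusted p = 0.0784) were among the calls lost there.

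EV-Epinephrine was also compared with EV-TNF, which does not involve the EV-Control libraries. TNFAIP3 was 2.86-fold lower (log2 difference -1.52, SE 0.257, adjusted p = 0.00591) and NFKBIA 1.92-fold lower (-0.94, SE 0.107, adjusted p = 0.000368) in EV-Epinephrine. These were the 2 genes of 10 that passed, against 3.14% of genes tested that were lower. NFKBIE, at -0.33 (SE 0.177, adjusted p = 0.39), and BIRC3, at 0.25 (SE 0.292, adjusted p = 0.749), did not overlap between the groups but did not pass. In a fit of these 6 libraries alone both passed, NFKBIE lower (adjusted p = 0.0119) and BIRC3 higher (adjusted p = 0.0164).

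Whether a response to vesicles differed from the response to the stimulus itself was tested as an interaction over all 30 libraries. Each response was counted from its own control, and 6 of the 10 genes were higher in EV-Control than in Control. For TNF the vesicle response lay below the direct response in all 10 genes (23.4% of 16691 genes tested), with log2 differences from -1.95 for NFKB1 to -5.99 for TNFAIP3. For IL1b all 10 again lay below (18.3% of genes tested), from -0.97 for NFKB1 to -3.11 for BIRC3. These calls held without any one EV-Control library. With EV-Control replicate 1 left out, the values ran from -1.80 for NFKB1 to -5.72 for TNFAIP3 for TNF, and from -0.83 for NFKB1 to -2.77 for TNFAIP3 for IL1b, with IRAK2 at -3.30 and -1.95. For C5a, NFKBIA (2.04, SE 0.159, adjusted p = 1.15e-08) and TNFAIP3 (1.82, SE 0.327, adjusted p = 0.000616) were higher in the vesicle response (5.87% of genes tested). Their log2 fold changes were -1.92 and -1.70 with C5a and 0.12 and 0.11 with its vesicles. With EV-Control replicate 1 left out, RELB (0.70, adjusted p = 0.000784), NFKB2 (0.41, adjusted p = 9.05e-05) and NFKBIE (0.52, adjusted p = 0.0245) were called as well. None of them was called without EV-Control replicate 2 (RELB 0.30, NFKB2 0.08, NFKBIE 0.20) or 3 (RELB 0.31, NFKB2 0.00, NFKBIE 0.09). RELB was also called without Control replicate 3 (0.61, adjusted p = 0.00977).

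For epinephrine the 2 responses, each counted from its own control, ran in opposite directions in TNFAIP3 and NFKBIA. The vesicle control lay above the direct control for both. TNFAIP3 averaged 65 CPM in Control, 325 CPM in EV-Control and 39 CPM in EV-Epinephrine. NFKBIA averaged 308 CPM in Control, 625 CPM in EV-Control and 158 CPM in EV-Epinephrine. TNFAIP3 rose by 2.05 with epinephrine and fell by 3.05 with its vesicles, an interaction of -5.10 (SE 0.319, adjusted p = 6.71e-11). NFKBIA rose by 0.88 and fell by 1.98, an interaction of -2.86 (SE 0.158, adjusted p = 8.13e-12). BIRC3 (-1.73), NFKBIE (-1.32) and NFKB2 (-0.98) moved the same way, and TNIP1 had a small positive interaction (0.17, adjusted p = 0.0418). In all, 5 genes lay lower in the vesicle response (12.5% of genes tested) and 1 higher (11.7%). The TNIP1 call was lost without Control replicate 1 (adjusted p = 0.196), Epinephrine replicate 3 (0.145), EV-Control replicate 2 (0.115) or 3 (0.26), or EV-Epinephrine replicate 1 (0.125) or 2 (0.0691). When EV-Control replicate 1 was left out, TNFAIP3 was at -4.83, NFKBIA at -2.77, BIRC3 at -1.31, NFKBIE at -1.07, NFKB2 at -0.74 and TNIP1 at 0.24 (adjusted p = 0.00148), and all 6 were called. IRAK2, at -1.12 (adjusted p = 0.0621), was at -0.40 (adjusted p = 0.175) without EV-Control replicate 1 and was called without EV-Control replicate 2 (adjusted p = 0.0278) or 3 (0.00352), and TRAF1, at -0.54 (adjusted p = 0.193), was at -0.14 (0.627) without EV-Control replicate 1 and was called without EV-Control replicate 3 (-0.79, adjusted p = 0.00938).

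**Figure D3:**
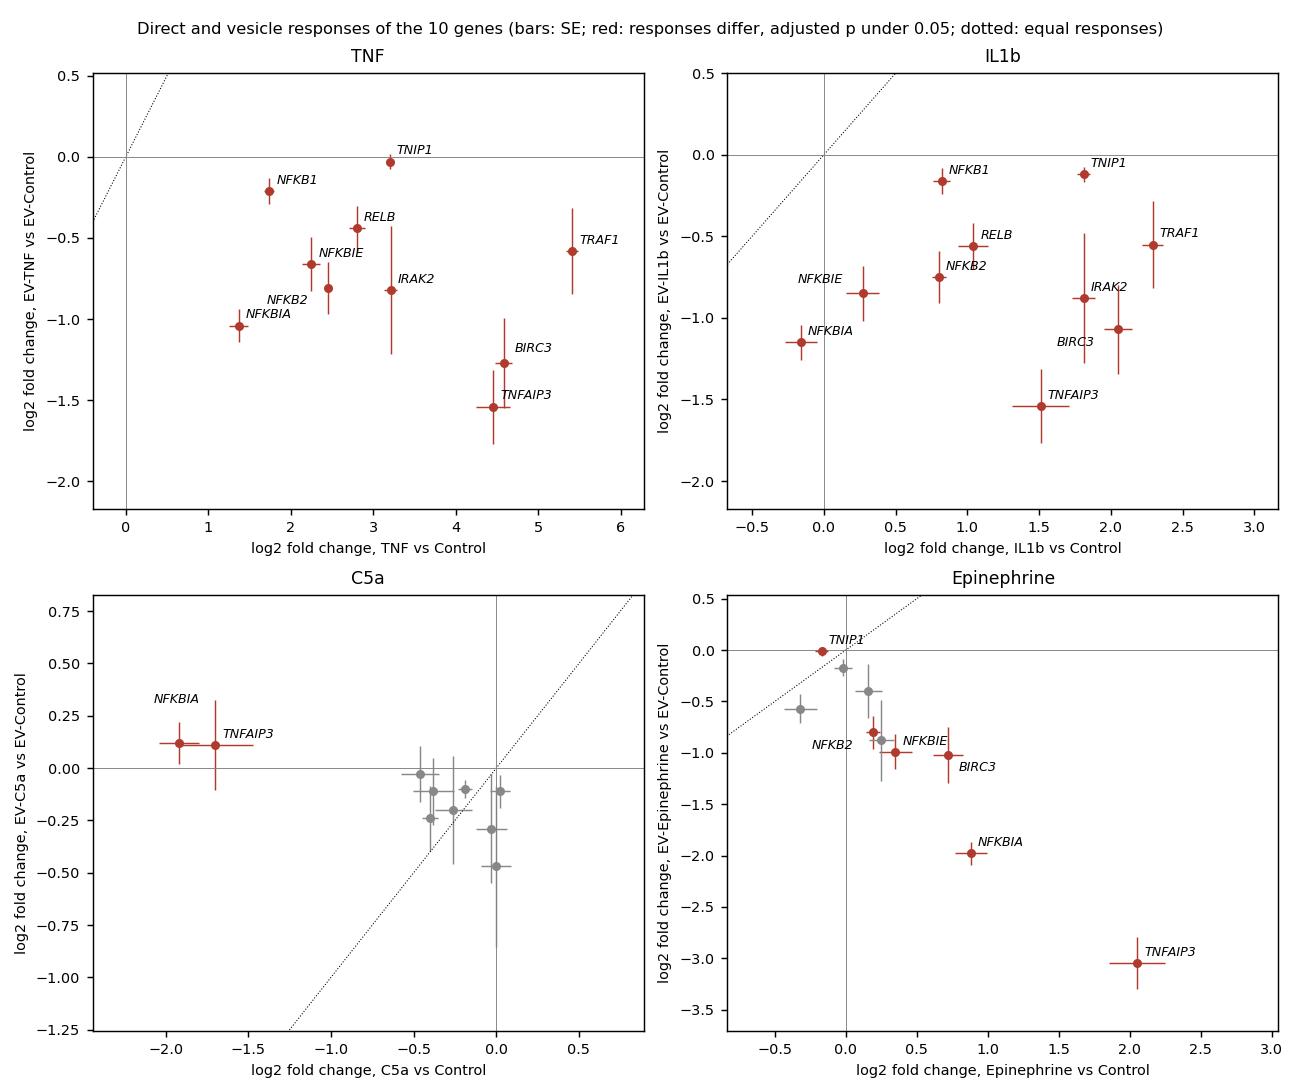
Log2 fold change over EV-Control in cells given vesicles (y axis) against log2 fold change over Control in cells given the stimulus (x axis), with 1 panel per stimulus, bars for SE and red points for genes whose responses differed at an adjusted p under 0.05. In the TNF panel all 10 genes lie right of 0 and none lies above 0, and in the epinephrine panel TNFAIP3 lies at 2.05 on the x axis and -3.05 on the y axis.

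The behaviour of the wider pathway was read from 46 other genes, comprising further subunits and IkappaB proteins, kinases, adaptors and ubiquitin enzymes. Genes are named here where they were among the 3 largest rises or falls of a comparison, passed the test and reached a mean of 5 CPM in the higher group. With TNF, 30 of them rose (65.2%, against 27.5% of all genes tested) and 1 fell (2.17%, against 25.3%), with a median log2 fold change of 0.51. IKBKE (an IkappaB kinase relative) rose by 2.22, MYD88 (the adaptor of the interleukin 1 receptor) by 1.97 and ZC3H12A (Regnase-1, a nuclease that destroys inflammatory mRNAs) by 1.67. TOLLIP fell by 0.27. TNIP3 (ABIN3, a relative of TNIP1) was too scarce for this rule and was added after its values were seen. It passed the test with TNF (2.99 CPM) and IL1b (1.49 CPM) against 0.09 CPM in Control. With IL1b, 24 rose (52.2%, against 24.0%) and 6 fell (13%, against 22.6%), with the largest rises in IRAK3 (1.11), BCL3 (0.90) and ZC3H12A (0.85) and the largest falls in SQSTM1 (-0.37), TOLLIP (-0.31) and PELI1 (-0.29). Between IL1b and TNF, 27 were lower (58.7%, against 21.4%) and 4 higher (8.70%, against 19.9%) in IL1b. IKBKE (-1.40), CYLD, a deubiquitinase that restrains the pathway (-1.27), and NFKBIZ, a nuclear IkappaB protein (-1.26), were the lowest, and CHUK (0.37), MAP3K7 (0.20) and IRAK1 (0.18) the highest.

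With C5a, 8 genes of this list fell (17.4%, against 10.8% of all genes tested) and 6 rose (13%, against 11.8%). ZC3H12A fell by 2.39, from 67.7 to 12.9 CPM, NFKBIZ by 2.31, from 197 to 39.5 CPM, and SQSTM1 by 0.53. TRAF5 (0.56), MAP3K14 (0.48) and OTUD7B (0.42) rose. With epinephrine, 7 rose (15.2%, against 13.5%) and 6 fell (13%, against 11.8%), shares near the background. NFKBIZ (1.06), ZC3H12A (0.34) and TRAF2 (0.30) rose most, and TOLLIP (-0.30), N4BP1 (-0.29) and RBCK1 (-0.26) fell most. In Epinephrine against C5a cells 10 were higher (21.7%, against 8.98%) and 6 lower (13%, against 8.08%), led by NFKBIZ (3.37), ZC3H12A (2.72) and REL (0.50) on the higher side and TRAF5 (-0.42), N4BP1 (-0.41) and MYD88 (-0.31) on the lower.

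In the vesicle groups 45 of the 46 genes could be tested, since TNIP3 had too few counts. In EV-TNF 9 of 45 were lower (against 7.42% of all genes tested) and 4 higher (8.89%, against 5.90%). In EV-IL1b 11 were lower (24.4%, against 8.14%) and 4 higher (8.89%, against 6.49%), and in EV-Epinephrine 11 were lower (24.4%, against 10.5%) and 5 higher (11.1%, against 9.12%). Leaving out EV-Control replicate 1 made these counts 7 lower and 2 higher, 7 and 3, and 8 and 5. In EV-C5a none was called with or without that library. ZC3H12A was lower by 1.38, 1.43 and 1.97 in EV-TNF, EV-IL1b and EV-Epinephrine. PELI1 fell by 0.92 in EV-TNF and 0.86 in EV-IL1b, NFKBIZ by 0.61 in EV-TNF and 1.83 in EV-Epinephrine, and REL by 1.29 in EV-IL1b and 1.37 in EV-Epinephrine. Once that library was left out, REL was at -0.63 in EV-IL1b and -0.70 in EV-Epinephrine, and ZC3H12A was at -1.03, -1.09 and -1.63. TRAF5, N4BP1 and MYD88 were the largest rises named in all 3 comparisons, with values from 0.22 to 0.46. Without that library TRAF5 was not called in EV-TNF (0.26, adjusted p = 0.132), EV-IL1b (0.30, adjusted p = 0.0727) or EV-Epinephrine (0.27, adjusted p = 0.0972). NFKBIZ was 1.22 lower and MYD88 0.24 lower on the log2 scale in EV-Epinephrine than in EV-TNF, and these were the 2 genes called there (4.44%, against 3.14% lower and 2.29% higher of all genes tested). EV-Control differed from Control in 17 of the 46, with 12 higher (26.1%, against 12.1%) and 5 lower (10.9%, against 9.80%). REL was at 1.23, NFKBIZ at 1.16 and ZC3H12A at 0.99, and IRAK4 (-0.46), TNIP2 (-0.20) and N4BP1 (-0.20) were the lowest. Leaving out EV-Control replicate 1 gave 11 higher and 2 lower, with REL at 0.57, NFKBIZ at 1.26 and ZC3H12A at 0.65, and TNIP2 and N4BP1 were not called (adjusted p = 0.156 and 0.121).

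In the interaction tests of this list, ZC3H12A had interactions of -3.04 for TNF, -2.27 for IL1b, 2.10 for C5a and -2.30 for epinephrine, and NFKBIZ 2.43 for C5a and -2.88 for epinephrine. IKBKE was at -2.43 and REL at -1.91 for TNF, and BCL3 was at -1.41 and REL at -1.35 for IL1b. With EV-Control replicate 1 left out, ZC3H12A was at -2.70, -1.94, 2.43 and -1.96, and REL at -1.25 for TNF and -0.70 for IL1b. For TNF 30 genes of the list were lower (65.2%, against 23.4% of all genes tested) and 2 higher (4.35%, against 21.3%), and for IL1b 21 lower (45.7%, against 18.3%) and 2 higher (4.35%, against 16.9%). For C5a 4 were lower (8.70%, against 6.05%) and 3 higher (6.52%, against 5.87%), near the background. For epinephrine 10 were lower (21.7%, against 12.5%) and 7 higher (15.2%, against 11.7%). In the absence of EV-Control replicate 1 the counts lower and higher were 30 and 0 for TNF, 19 and 2 for IL1b, 5 and 4 for C5a, and 10 and 5 for epinephrine.

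**Figure D4:**
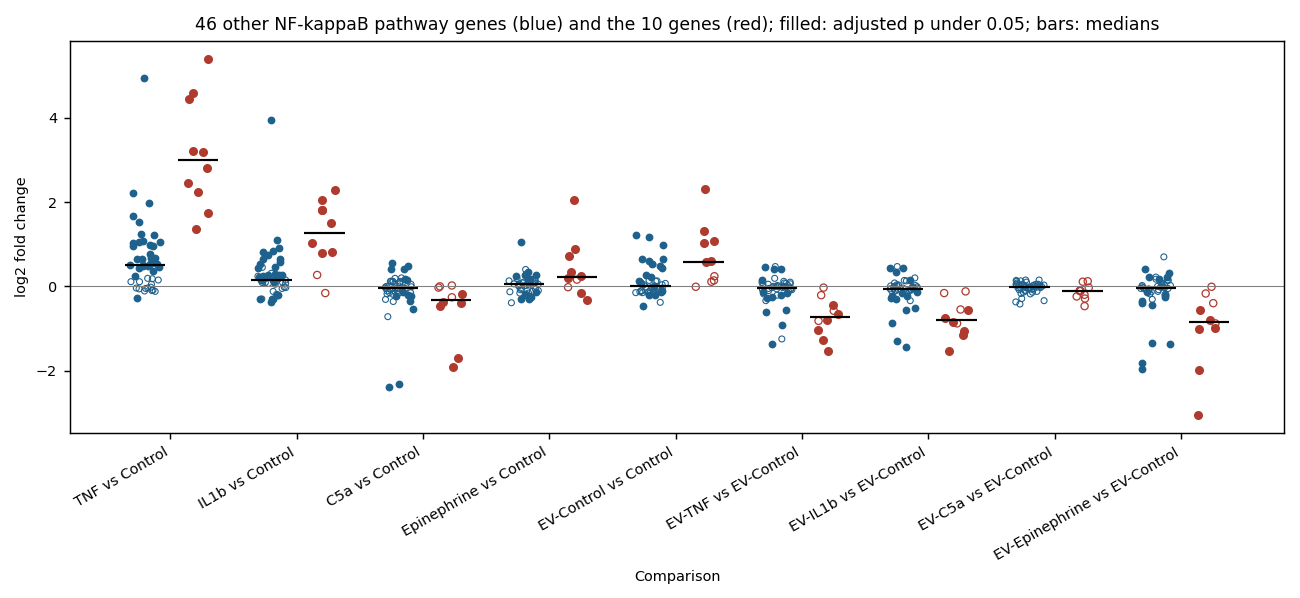
Log2 fold change (y axis) of the 46 other pathway genes (blue) and of the 10 genes (red) in each comparison (x axis), with filled points at an adjusted p under 0.05 and bars for the medians of each list. With TNF the medians are 0.51 and 3.00, and in EV-C5a no point of either list is filled.

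The genes whose pattern over the 10 group means of log2 CPM was most like that of each member were picked from 11039 genes by Pearson's coefficient. For TNFAIP3 they were EREG (0.992), which encodes the growth factor epiregulin, and DDX3X (0.984). For NFKBIA they were BCL6 (0.964), a transcriptional repressor, and C11orf96 (0.948). Spearman's coefficient was 0.988 for EREG and 0.952 for BCL6. NFKB1 was nearest to TRAF1 (0.997) and IL32 (0.997), NFKB2 to ICAM1 (0.993), the endothelial adhesion molecule, and BIRC3 (0.990), TNIP1 to PSTPIP2 (0.999) and HDGF (0.996), and IRAK2 to ZC3H12C (0.994) and KDM5C (0.993). RELB was nearest to IL32 (0.993) and CLIC4 (0.990), NFKBIE to SHB (0.991) and INHBA (0.979), BIRC3 to NFKB2 (0.990), and TRAF1 to NFKB1 (0.997) and IL32 (0.996). The points share their libraries and their depth, so these coefficients are a description. For genes such as NFKB1, TNIP1 and TRAF1, 2 of the 10 groups (TNF and IL1b) hold most of the range. For NFKBIA the highest group mean was 9.86 times the lowest, and still 8.39 times among the 8 groups without a direct cytokine. By Spearman's coefficient some matches were looser, such as 0.709 for NFKB1 with IL32 and 0.661 for TNIP1 with HDGF.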

How the data were processed

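Gene expression was measured in 30 hCMEC/D3 libraries, 3 for each of 10 groups. QIAshredder and RNeasy kits were used for extraction and NEBNext Ultra for libraries, with an input of 1 ng, per the labels' protocols. The authors deposited 1 table of raw read counts per gene, without normalization. The submitters' processing notes name hg38, FastQC, STAR, DESeq2 and R 4.4.1, and the counting program, annotation release and strand setting are not given in the sources used here. The table had 63147 lines. Of these, 4 had no gene ID (0.00079% to 0.0016% of a library) and were left out, as were 2 genes without counts, and 3 repeated IDs were kept once.

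The counts were tested with edgeR 4.0.16 under R 4.3.3, after filterByExpr, with trimmed mean of M-values scaling and the robust quasi-likelihood test, two-sided. Adjusted p-values are Benjamini-Hochberg values over all genes of a comparison, with a threshold of 0.05. Shares of all genes tested come from fits with no library left out. None is given for the fits that left out a library. Comparisons among direct groups used their 15 libraries (15908 genes), those among vesicle groups theirs (15918 genes), and EV-Control against Control and the 4 interactions used all 30 (16691 genes). CPM are counts relative to the scaled library total. CPM per kb were divided by the exonic length in GENCODE 29. On simulated data for TNF against Control (15343 genes), the test found 98 of 100 genes changed by a log2 fold of 1 and 77 of 100 changed by 0.5, with 13 false calls. The simulation changed 200 genes, with as many rises as falls, while 8388 genes were called in the data. It therefore does not check the scaling or the false calls where that many genes change. Replicates of a group differed by more than sampling noise, with a chi-square per gene of 2.04 to 12.9 over 30 pairs. In Epinephrine it was 12.9 for replicates 1 and 2, 10.1 for 2 and 3 and 5.07 for 1 and 3. In EV-Control it was 5.96 for replicates 1 and 2, 10.1 for 1 and 3 and 4.87 for 2 and 3.

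The 10 members, the 46 pathway genes and the marker lists were chosen with earlier results of these data known. All members are named. Pathway genes are named by the rule stated with them, and the 2 genes of most similar pattern were sought among genes with a mean of at least 5 CPM in their highest group. For 1 gene that this rule selects the result is not reported here. Alternatives tried were relative log expression factors, total counts, no low-count filter, a mean of at least 50 counts, DESeq2 1.42.0, replicate number as a term, other sets of libraries in the fit, and leaving out each library.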

Additional observations from a re-analysis of the deposited data

Results flagged for a closer look

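The response to vesicles differed from the response to the stimulus itself in 28 tests of single genes, each an interaction over all 30 libraries at an adjusted p under 0.05 (edgeR's quasi-likelihood test, 10 genes for each of 4 stimuli). Values are log2 differences, the vesicle response (over EV-Control) minus the direct response (over Control). For TNF they were -1.95 for NFKB1, -3.25 for NFKB2, -3.25 for RELB, -2.41 for NFKBIA, -2.91 for NFKBIE, -5.99 for TNFAIP3, -3.23 for TNIP1, -5.85 for BIRC3, -5.98 for TRAF1 and -4.02 for IRAK2.

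For IL1b they were -0.97 for NFKB1, -1.54 for NFKB2, -1.59 for RELB, -0.98 for NFKBIA, -1.12 for NFKBIE, -3.03 for TNFAIP3, -1.92 for TNIP1, -3.11 for BIRC3, -2.82 for TRAF1 and -2.68 for IRAK2. For C5a they were 2.04 for NFKBIA and 1.82 for TNFAIP3. For epinephrine they were -0.98 for NFKB2, -2.86 for NFKBIA, -1.32 for NFKBIE, -5.10 for TNFAIP3, 0.17 for TNIP1 and -1.73 for BIRC3. The TNIP1 call was lost with DESeq2 (adjusted p = 0.0608). The interactions share the Control and EV-Control libraries.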

How the results depend on the processing

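The alternatives gave 2430 tests of single genes, including genes not called to begin with. Of these, 2307 stayed on their side of the threshold, 80 calls were lost and 43 were gained. No called change reversed its direction. A fit of only the groups compared lost 25 and gained 5, and it called 3 of the 10 genes in Epinephrine against Control, 1 in EV-TNF, 1 in EV-IL1b, 2 in EV-Epinephrine and 2 in EV-Control against Control, in place of 8, 6, 6, 6 and 6. It called 4 in EV-Epinephrine against EV-TNF, in place of 2. Such a fit has fewer libraries to estimate the spread from, and it takes the spread from the groups compared alone. EV-Control varied more than the other vesicle groups in genes such as BIRC3. Its SD there was 33.4 CPM, against 9.87 in EV-C5a, 1.67 in EV-TNF, 1.02 in EV-IL1b and 1.4 in EV-Epinephrine. The part of either in the lost calls was not tested. A fit of all 30 libraries called 4 in Epinephrine against Control. In EV-C5a the 8 genes called became 5 with total counts, 73 without the low-count filter, 3 with a mean of at least 50 counts, 3 with only the groups compared and 3 with all 30 libraries. The cause was not tested.

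Leaving out single libraries lost 45 calls and gained 22 over 1200 tests of single genes, called or not. The genes called ranged from 2 to 175 in EV-C5a and from 513 to 677 in EV-Epinephrine against EV-TNF (865 with all libraries). Members called ranged from 5 to 10 in EV-IL1b, 3 to 9 in EV-TNF, 4 to 7 in Epinephrine against Control and 2 to 5 in the C5a interaction.

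The replicate block, with replicate number as a term, gained 2 calls over 160 tests, NFKB1 in EV-TNF (adjusted p = 0.0307) and NFKBIE in IL1b (adjusted p = 0.0422), and lost none. It called 8339 genes in TNF against Control, in place of 8388. Same-numbered libraries did not deviate together (correlations -0.0393 to 0.0286), and 10 of 30 correlated best with their own number, so the numbers were not taken as pairs. Total counts in place of scaling factors shifted the median of all genes by over 0.1 in TNF against Control (-0.012 to -0.288), IL1b against TNF (0.012 to 0.205) and the TNF interaction (0.025 to 0.313). Each member had at least 119 counts in every library. For the scarcest, such as TRAF1 in the vesicle groups, counting error limits the precision.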
